A study of Mus musculus with 12 samples.

Results

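The genes described here encode the liver hormone FGF21 (Fgf21), its coreceptor beta-Klotho (Klb) and the fibroblast growth factor receptors FGFR1, FGFR2, FGFR3 and FGFR4 (Fgfr1, Fgfr2, Fgfr3, Fgfr4). They were chosen by name, and each is measured by the only probe set that the platform annotation pairs with its symbol alone, giving 6 of the 19938 genes tested. Expression was profiled on arrays in whole livers of the inbred mouse strain C57Bl/6J, with 1 array per mouse. The sh Grb14 group held 6 mice that had received, through a vein, adenovirus carrying a short hairpin RNA directed at Grb14, and the sh scramble group held 6 mice given the virus with a scrambled hairpin. All 12 animals were 10 weeks old at injection, carried adenovirus, and were sampled in the fed state on day 7. The sources used here do not give the sex of the mice, the promoter of the hairpin or the number of hairpins. No liver free of adenovirus was part of the comparison. Grb14 is an adapter that docks on the active insulin receptor and restrains its signal, and the comparison asks what follows in liver expression when it is lowered.

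FGF21 is secreted mainly by hepatocytes in response to fasting, dietary imbalance and cellular stress, and it acts on cells that carry beta-Klotho together with an FGF receptor, chiefly FGFR1 in adipose tissue and brain. Beta-Klotho has no kinase of its own: it holds the endocrine FGFs against the receptor, a tyrosine kinase that signals through FRS2 adapters to the ERK cascade. In the hepatocyte the prominent pair is beta-Klotho with FGFR4, which receives FGF15 (FGF19 in humans) from the gut and represses bile acid synthesis.

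The promoters of 5 of the 6 genes were found in a RefSeq table of GRCm38.p6, as 300 bases running 5′ to 3′ from 250 bases upstream to 50 bases downstream of the annotated start. Fgfr1 was not matched. Those of Fgf21 (chr7:45615441-45615740, minus strand), Klb (chr5:65348161-65348460, plus strand) and Fgfr4 (chr13:55152568-55152867, plus strand) are shown because Fgf21 is the hormone, whose difference did not pass the test, while Klb and Fgfr4, the hepatocyte receptor pair, fell by nearly the same amount. Capitals mark matches to the motifs named after the sequences, which were searched on both strands.
Fgf21: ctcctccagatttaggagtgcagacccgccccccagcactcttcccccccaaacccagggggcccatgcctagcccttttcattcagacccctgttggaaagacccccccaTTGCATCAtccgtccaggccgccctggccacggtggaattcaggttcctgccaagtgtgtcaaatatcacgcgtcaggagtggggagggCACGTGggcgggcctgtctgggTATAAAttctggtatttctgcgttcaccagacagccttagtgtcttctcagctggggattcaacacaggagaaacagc
Klb: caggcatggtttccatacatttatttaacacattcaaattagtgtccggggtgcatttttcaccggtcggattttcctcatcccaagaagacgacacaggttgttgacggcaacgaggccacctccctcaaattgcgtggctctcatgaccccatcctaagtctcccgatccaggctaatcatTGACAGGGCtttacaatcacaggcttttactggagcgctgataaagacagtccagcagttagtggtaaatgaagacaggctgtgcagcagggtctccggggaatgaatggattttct
Fgfr4: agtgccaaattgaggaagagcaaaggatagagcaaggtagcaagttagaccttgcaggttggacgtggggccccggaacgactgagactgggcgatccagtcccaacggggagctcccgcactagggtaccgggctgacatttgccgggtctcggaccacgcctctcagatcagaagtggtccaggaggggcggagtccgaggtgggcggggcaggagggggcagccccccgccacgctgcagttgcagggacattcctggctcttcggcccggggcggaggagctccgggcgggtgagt
In Fgf21 the capitals mark, in order, TTGCATCA, the letters of a C/EBP-ATF response element, 139 bases upstream of the start, the E-box CACGTG at 50 bases upstream and the TATA box TATAAA at 28 bases upstream. Of 32851 promoters of the same length, 0.895% held TTGCATCA, 7.15% held CACGTG and 13.6% held TATAAA. In Klb they mark TGACAGGGC, a match to the antioxidant response core TGACNNNGC that 12.4% of promoters held, at 67 bases upstream. The Fgfr4 window had no match to any motif searched. The others searched were the direct repeat bound by PPAR with its partner RXR (0.0396% of promoters), its core AGGTCA (16.3%), which is part of the repeat, the cyclic AMP element TGACGTCA (1.79%), the HNF1 core GTTAAT (7.10%) and CCAAT (37.4%). The G and C content was 58.0% in Fgf21, 48.3% in Klb and 65.3% in Fgfr4, beside a median of 52.7% over all promoters. Such a match describes letters in a window and is not evidence of binding.

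Several arrays stood apart in markers of neighbouring tissue. The mean log2 level of 12 measured pancreatic acinar genes was 11.62 in mouse 4 of the sh scramble group, and lay between 6.65 and 8.41 in sh Grb14 mice and between 6.96 and 8.48 in the other sh scramble mice. The mean of 10 skeletal muscle genes was 9.15 in mouse 6 of the sh scramble group, and between 6.51 and 6.84 on all other arrays. Albumin (Alb), the defining hepatocyte product, averaged 13.95 ± 0.04 in sh Grb14 livers and 13.92 ± 0.02 in sh scramble livers (SD, n = 6 each), close to the highest value on any array. Grb14 itself lay between 8.02 and 8.44 (median 8.23) in sh Grb14 livers, against 10.08 to 10.25 (median 10.14) in sh scramble livers, without overlap. Its level was 26.7% of that in sh scramble livers, with a limma adjusted p of 7.99e-14.

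On the receptor side Klb, Fgfr4, Fgfr3 and narrowly Fgfr1 were lower in sh Grb14 livers, while no difference passed for the hormone gene. Klb and Fgfr4 fell to 51.1% of the sh scramble level, Fgfr3 fell to 72.2% and Fgfr1 to 90.2%, while Fgf21 and Fgfr2 did not pass the test. With limma and Benjamini-Hochberg adjustment over all genes (adjusted p under 0.05), 4 of the 6 genes passed, all of them lower in sh Grb14 livers. This count has to be read against the whole array, on which 65.3% of genes passed, 39.5% lower and 25.8% higher. With each array centred on its median, 12943 genes were lower and 3859 higher, in place of 7868 and 5144. The groups did not overlap for 3 of the 6 genes, as for 41.2% of all genes (20.8% of all genes did so with the lower values in sh Grb14 livers). The median change of the 6 was -0.31 and that of all genes -0.10, so the number of calls does not set these genes apart, and the sizes are what distinguishes them from one another. A fall that passed the test and was at least as large as that of Klb was seen in 2.82% of genes.

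**Figure D1:**
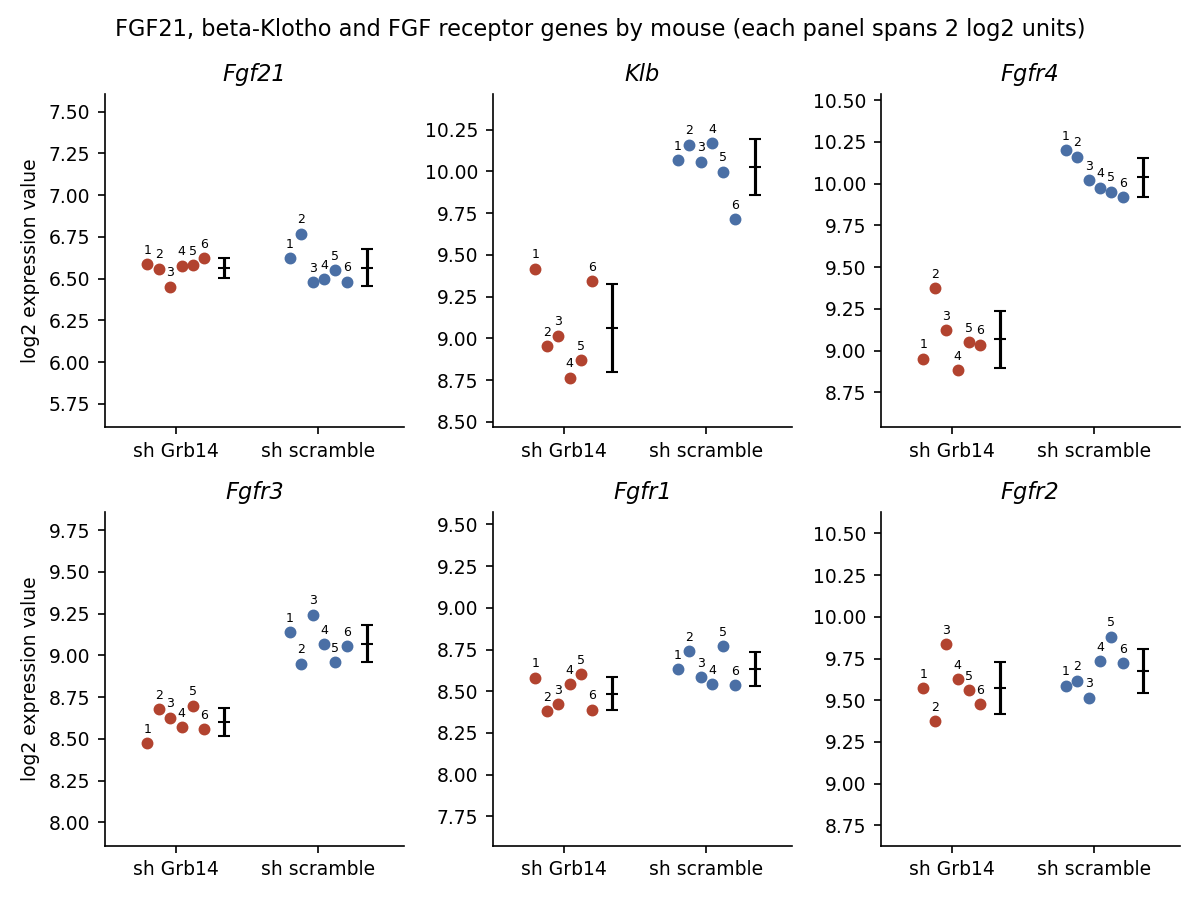
Log2 expression value (vertical axis, a window of 2 units in each panel, placed differently for each gene) of the 6 genes in sh Grb14 and sh scramble livers; points are mice, numbered within their group, and the bar beside them is the mean with the SD of 6 mice. The groups are apart for Klb, Fgfr4 and Fgfr3 and overlap for Fgf21, Fgfr1 and Fgfr2.

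No difference was detected for the hormone gene. Fgf21 ranged between 6.45 and 6.62 (median 6.58) in sh Grb14 livers and between 6.48 and 6.77 (median 6.52) in sh scramble livers. The sh Grb14 values lay almost wholly inside the sh scramble range, mouse 3 alone being below it, and the highest value of the 12 belonged to mouse 2 of the sh scramble group. The means were 6.56 ± 0.06 in sh Grb14 livers and 6.57 ± 0.11 in sh scramble livers (SD, n = 6 each), a log2 difference of -0.003 with a 95% interval of -0.13 to 0.13 (limma adjusted p = 0.969; exact permutation p = 0.965, two-sided). These values lie below the array medians, which were between 7.06 and 7.17, and no detection call was available, so a change of a dim transcript could be understated here. Centring each array on its own median moved the difference to -0.15, which then passed (adjusted p = 0.0293). That scaling also shifted the median of all genes by -0.15, and relative to the median gene Fgf21 stood 0.10 higher.

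**Figure D2:**
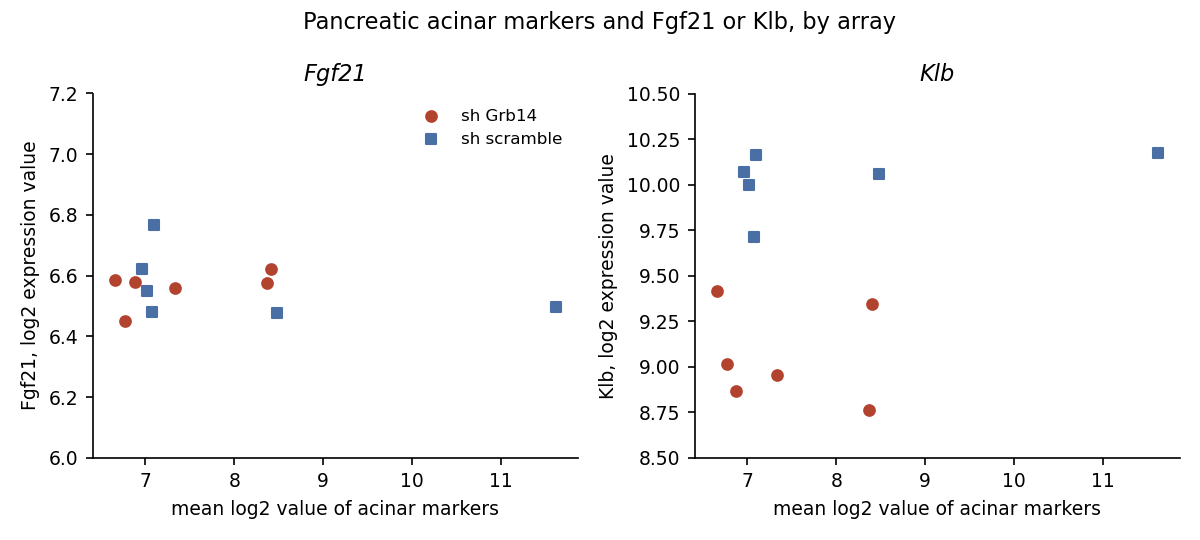
Fgf21 (left) and Klb (right), log2 expression value on the vertical axis, against the mean log2 value of 12 pancreatic acinar markers on the horizontal axis; each point is an array, circles for sh Grb14 and squares for sh scramble. The sh scramble array at 11.62 on the acinar axis has an Fgf21 value of 6.50, inside the range of the other arrays.

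The exocrine pancreas is a known site of Fgf21 expression, so the array with acinar transcripts was examined. Its Fgf21 value was 6.50, within the 6.48 to 6.77 of its group. Without that array and the array with muscle transcripts the Fgf21 difference was -0.04 (limma adjusted p = 0.622), and without all 5 arrays on which the acinar or muscle mean exceeded 8 it was -0.10 (adjusted p = 0.343). Those 5 were mice 4 and 6 of the sh Grb14 group and mice 3, 4 and 6 of the sh scramble group. That run compared fewer mice, so a call can be lost in it through lower power alone.

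Genes that control Fgf21 transcription mostly fell. The list held 18 regulators, of which 14 were lower past the test, 2 were higher and 2 missed it. Over all genes 39.5% were lower and 25.8% higher. The median change of the list was -0.38, against -0.10 for all genes. The list pools activators with repressors such as Nr1d1, so its direction does not measure the drive on Fgf21. Periportal and pericentral hepatocyte markers fell in the same livers (medians -0.80 and -0.88), and their part in these falls was not tested. Ppara, the fasting-activated nuclear receptor that drives Fgf21, averaged 10.28 ± 0.06 in sh Grb14 livers and 11.35 ± 0.10 in sh scramble livers (SD, n = 6 each), a fall of 2.09-fold. Its partner Rxra fell by 0.55 (SE 0.06) and its coactivator Ppargc1a by 0.85 (SE 0.14). Mlxipl, which encodes the carbohydrate sensor ChREBP, fell by 0.94 (SE 0.07), Creb3l3, a membrane-bound factor that works with PPAR-alpha, by 0.38 (SE 0.04), and Xbp1 of the unfolded protein response by 0.32 (SE 0.04). Thrb, a thyroid hormone receptor, had the largest fall of the list at 1.31 (SE 0.07). Atf4, the amino acid response factor whose element is in capitals in the Fgf21 promoter, fell by 0.40 (SE 0.06).

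The 2 regulators that rose belong to stress responses. Nfe2l2, encoding NRF2, rose 2.05-fold (log2 1.04, SE 0.05), and Ddit3, encoding CHOP, rose by 0.30 (SE 0.07), or by 0.16 with arrays centred on their medians. Nr1d1, the clock repressor REV-ERB-alpha, had the smallest change of the list, -0.07 (SE 0.09), and did not pass (limma adjusted p = 0.506), although it did when arrays were centred (-0.21, adjusted p = 0.0288).

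Targets of these regulators other than Fgf21 included genes that rose and genes that fell. Creb3l3, listed among the PPAR-alpha targets, and Ddit3, listed among the ATF4 targets, are counted in the regulator list as well. Among 16 measured PPAR-alpha targets 6 were higher past the test, 4 were lower and the remaining 6 missed it (median -0.01). Over all genes 25.8% were higher and 39.5% lower. Acot2, an acyl-CoA thioesterase, rose 4.21-fold, Pdk4, which inhibits pyruvate dehydrogenase, rose 3.14-fold and the omega-hydroxylase Cyp4a14 rose 2.40-fold, whereas the fatty acid binding protein gene Fabp1 fell by 0.93 (SE 0.07). Acadm, of mitochondrial beta-oxidation, differed by 0.02 (SE 0.04), short of the threshold, and the value turned to -0.13 with arrays centred (adjusted p = 0.0146). The ATF4 list had 15 measured targets, 10 of them higher, 1 lower and 4 short of the threshold (median 0.41), beside 25.8% of all genes higher. Atf3, a stress-induced repressor, rose 4.47-fold, Sesn2, a nutrient sensor that restrains mTORC1, 3.44-fold and Psat1, of serine synthesis, 2.82-fold. Slc7a11, the cystine transporter, averaged 9.78 ± 0.43 in sh Grb14 livers and 5.29 ± 0.17 in sh scramble livers (SD, n = 6 each); it is also an NRF2 target. Nupr1, a stress-induced chromatin protein that is abundant in pancreas, had a change of -0.02 (adjusted p = 0.934), which was 0.18 without mouse 4 of the sh scramble group (adjusted p = 0.0698). Without sh scramble mice 4 and 6 it was 0.24 and passed (adjusted p = 0.0134).

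Klb, the coreceptor, was lower in every sh Grb14 liver. Its values ranged between 8.76 and 9.42 (median 8.98) in sh Grb14 livers and between 9.71 and 10.17 (median 10.06) in sh scramble livers. Every sh Grb14 mouse was below every sh scramble mouse, with mice 1 and 6 the highest of their group and mouse 4 the lowest. The means of 9.06 ± 0.26 in sh Grb14 livers and 10.03 ± 0.17 in sh scramble livers (SD, n = 6 each) differed by -0.97 (SE 0.11), 1.96-fold lower (limma adjusted p = 5.10e-07; exact permutation p = 0.00216, two-sided, the smallest that 6 mice against 6 allow).

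Fgfr4, the receptor that beta-Klotho accompanies in hepatocytes, fell equally far on the log2 scale. It ranged between 8.88 and 9.37 (median 9.04) in sh Grb14 livers and between 9.92 and 10.20 (median 9.999) in sh scramble livers. The groups were again separate, and here mouse 2 was the highest of the sh Grb14 group and mouse 4 the lowest. The difference was -0.97 (SE 0.07), or 1.96-fold lower, with a limma adjusted p of 5.54e-09 and an exact permutation p of 0.00216. Without the sh scramble arrays with the most acinar and muscle transcripts, the differences were -1.01 for Klb and -1.02 for Fgfr4 (limma adjusted p = 1.27e-06 and 6.12e-08).

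Both genes are expressed mainly by hepatocytes in the liver, and hepatocyte markers were lower in the same samples. In sh Grb14 livers 6 of 7 measured periportal genes and 8 of 11 pericentral genes fell, with medians of -0.80 and -0.88, while 11 of 15 hepatocyte secreted protein genes fell with a median of -0.24. The mean level of the secreted protein list was between 13.02 and 13.18 in sh Grb14 livers and between 13.35 and 13.44 in sh scramble livers. These values lie near the highest on any array, 14.24, so falls of such bright transcripts could be understated. All 9 measured markers of monocytes and recruited macrophages rose, with a median of 1.94 and a mean level of 9.69 to 10.04 in sh Grb14 livers, against 7.83 to 8.11 in sh scramble livers. These counts are of genes past the test, beside 39.5% of all genes lower and 25.8% higher. In whole liver, fewer cells of a type and less RNA per cell cannot be told apart, and the part of cell composition in these falls was not tested.

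Among the other receptors, Fgfr3 fell moderately and Fgfr1 slightly. FGFR3 is a receptor that beta-Klotho can also engage. Fgfr3 ranged between 8.47 and 8.70 (median 8.60) in sh Grb14 livers and between 8.95 and 9.24 (median 9.06) in sh scramble livers. The groups did not overlap, and the difference of -0.47 (SE 0.06) was 1.38-fold lower (limma adjusted p = 2.15e-06; exact permutation p = 0.00216).

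Fgfr1, the main receptor partner for FGF21 outside the liver, ranged between 8.38 and 8.60 (median 8.48) in sh Grb14 livers and between 8.54 and 8.77 (median 8.61) in sh scramble livers. The groups overlapped, with 3 of 6 sh Grb14 mice below the lowest sh scramble mouse and all 6 below the sh scramble mean. The difference of -0.15 (SE 0.06) passed narrowly (limma adjusted p = 0.0380; exact permutation p = 0.0411). Relative to the median gene it was -0.05. The call was lost on leaving out mouse 2, 3 or 6 of the sh Grb14 group (adjusted p = 0.0852, 0.0773 and 0.0870) or mouse 1, 2 or 5 of the sh scramble group (adjusted p = 0.0564, 0.0853 and 0.0888), and centring the arrays moved the difference to -0.30. Without the arrays of sh scramble mice 4 and 6 it was -0.20 (adjusted p = 0.0204), and that of Fgfr3 was -0.47.

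Fgfr2, a receptor for paracrine FGFs such as FGF7 and FGF10, ranged between 9.38 and 9.84 (median 9.57) in sh Grb14 livers and between 9.51 and 9.88 (median 9.67) in sh scramble livers. The groups overlapped over most of their range. The difference of -0.10 (95% interval -0.26 to 0.05) did not pass (limma adjusted p = 0.228; exact permutation p = 0.251), and equalled the median change of all genes; with arrays centred it was -0.25 and passed (adjusted p = 0.00535). Fgfr1 and Fgfr2 are also expressed by stellate cells, bile duct cells and other non-hepatocytes. Of 15 stellate cell and fibroblast markers 9 rose and 2 fell in sh Grb14 livers (median 0.78), and of 8 measured bile duct and progenitor markers 4 rose and 4 did not pass (median 0.14). Among all genes 25.8% were higher past the test and 39.5% lower. Whether these cells bear on the Fgfr1 and Fgfr2 values was not tested.

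**Figure D3:**
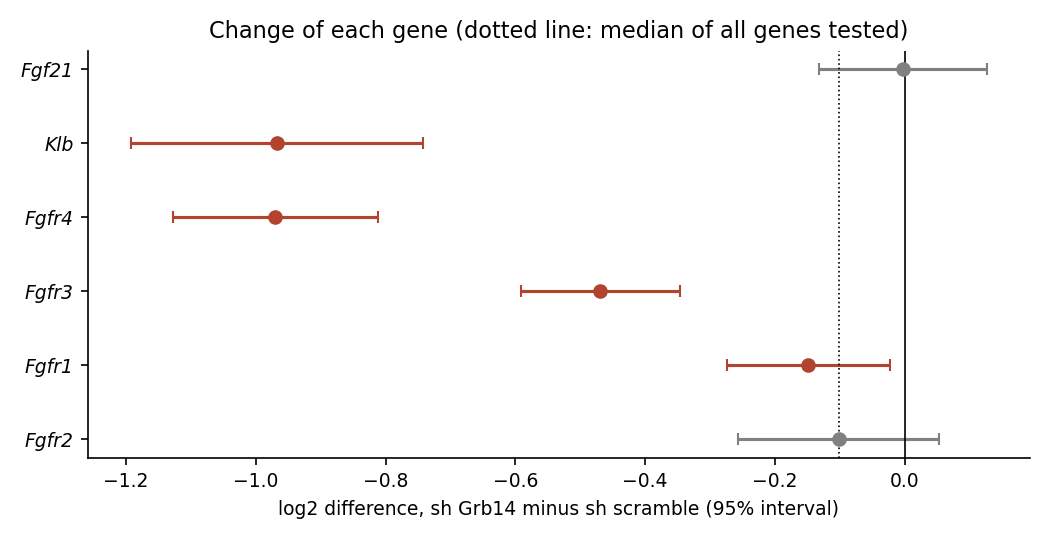
Log2 difference, sh Grb14 minus sh scramble, with its 95% interval (horizontal axis) for each of the 6 genes, in red where the adjusted p was under 0.05 and in grey otherwise; the solid line is 0 and the dotted line the median of all genes tested, -0.10. Klb and Fgfr4 lie at -0.97 each, Fgfr3 at -0.47, and Fgf21, Fgfr1 and Fgfr2 near the lines.

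The changes of the 6 genes were then compared with each other inside each mouse, as the difference of the log2 values of a pair. This removes any shift common to all genes of an array. Distortion that depends on intensity is not removed, and Fgf21 is much dimmer than the other 5 genes. Of the 15 pairs, 12 differed between the groups in an exact two-sided permutation test with adjustment over the pairs. The pairs share the same 6 genes and are not independent. With 65.3% of all genes past the test and no share computed for other pairs, this count does not set the 6 genes apart. For Klb and Fgfr4 no difference in change was detected: the gap between them averaged -0.01 ± 0.33 in sh Grb14 livers and -0.01 ± 0.14 in sh scramble livers (SD, n = 6 each; exact p = 0.991, SE of the contrast 0.15). The change of Fgfr4 was lower than that of Fgfr3 by 0.50 (SE 0.08), than that of Fgfr1 by 0.82 (SE 0.11) and than that of Fgfr2 by 0.87 (SE 0.14), each with exact p = 0.00216 and adjusted p = 0.00406. The change of Klb was lower than that of Fgf21 by 0.96 (SE 0.12; exact p = 0.00216, adjusted p = 0.00406). Fgf21 and Fgfr2, and Fgfr1 and Fgfr2, were the other pairs that did not pass (exact p = 0.400 and 0.619).

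Klb and Fgfr4 fell alike between the groups, and their correlation within the groups was low, though 12 arrays estimate it imprecisely. Over the 12 arrays, after subtraction of the group means, Klb and Fgfr4 had a Pearson correlation of 0.08, and Fgfr4 and Fgfr2 one of -0.47. The genes most like Klb by this measure were Cyp2c38 (0.92), Bbs5 (0.90) and Acp6 (0.89), and those most like Fgfr4 were Aspg (0.96), Krtap15 (0.92) and Coq9 (0.91). For Fgf21 they were AY358078 (0.95), Tmprss11b (0.91) and Pou3f1 (0.91), for Fgfr3 Olfr669 (0.90), Rundc1 (0.85) and Gpx2 (0.84), for Fgfr1 Mrvi1, Mir216a and Hs3st3a1 (0.90, 0.90 and 0.89) and for Fgfr2 Hpse, Spa17 and Lum (0.93, 0.92 and 0.88). These are the highest correlations for each gene among all genes tested, over 12 arrays that share their processing, and they are given as a description.

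Among the other ligands, Fgf1, the acidic FGF that binds every FGF receptor, had the largest change. It lay between 9.36 and 9.88 in sh Grb14 livers and between 10.76 and 10.93 in sh scramble livers, and fell 2.34-fold (log2 -1.23, SE 0.07; limma adjusted p = 2.72e-10). Over all 21 other ligand genes, 13 were lower past the test and 2 were higher, and the median change was -0.23. This share past the test is near the 65.3% of all genes, of which 39.5% were lower and 25.8% higher. Fgf15, the ileal hormone that reaches FGFR4 with beta-Klotho, averaged 6.77 ± 0.15 in sh Grb14 livers and 7.03 ± 0.11 in sh scramble livers (SD, n = 6 each), a fall of 0.26 (SE 0.07) from dim values, and of 0.41 with arrays centred. Fgf23, the bone-derived phosphate hormone, differed by 0.03 (SE 0.08; limma adjusted p = 0.773), and by -0.12 with arrays centred. The intracellular members Fgf11 and Fgf13 moved apart, Fgf11 falling by 0.86 (SE 0.07) and Fgf13 rising by 0.54 (SE 0.11), and Fgf16 fell by 0.42 (SE 0.10). These genes are dim too: Fgf13 and Fgf16 lay below the array medians in both groups, and Fgf11 did in sh Grb14 livers (mean 6.34). With the filter on dim genes, 2 of these ligand genes passed.

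Accessory proteins gave small differences. Kl, encoding alpha-Klotho, the FGF23 coreceptor of kidney, fell by 0.31 (SE 0.07) at values near 6, and Fgfbp1, an FGF carrier, by 0.40 (SE 0.07). Fgfrl1, a receptor without a kinase, fell by 0.21 (SE 0.07), and its change was -0.36 with arrays centred. Without the 5 arrays with acinar or muscle transcripts its change was -0.19, and the call was lost with fewer mice (limma adjusted p = 0.113). Fap, the protease that inactivates FGF21 in human blood, had a change of 0.03 (SE 0.06; limma adjusted p = 0.701), and Fgfbp3 one of -0.02 (SE 0.07), which was -0.17 with arrays centred and then passed (adjusted p = 0.0274). Of the 6 genes in this group 3 fell past the test and 3 did not pass, beside 39.5% of all genes lower.

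Heparan sulfate proteoglycans, which paracrine FGFs need to bind their receptors and endocrine FGFs need less, split. Of the 18 measured, 8 were higher past the test, 5 were lower and 5 missed it (median 0.10). Over all genes 25.8% were higher and 39.5% lower. The mean level of the list lay between 9.58 and 9.70 in sh Grb14 livers and between 9.24 and 9.29 in sh scramble livers. Gpc3, a fetal liver glypican, averaged 11.32 ± 0.42 in sh Grb14 livers and 6.83 ± 0.12 in sh scramble livers (SD, n = 6 each). Sulf2, which trims sulfate from heparan chains, rose 3.07-fold, and Sdc3, a syndecan, rose 2.62-fold, whereas the glypican gene Gpc4 fell 1.92-fold. Ndst2, a sulfotransferase of heparan assembly, had a change of -0.01 (SE 0.05), or -0.16 with arrays centred (adjusted p = 0.00819).

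The adapters next to the receptor also moved both ways. Past the test, 5 of 13 measured transducers were higher and 6 lower (median -0.06), beside 25.8% of all genes higher and 39.5% lower. Frs3, the second FRS adapter, fell by 0.43 (SE 0.06), the exchange factor gene Sos1 by 0.66 (SE 0.08) and Plcg1, the phospholipase that docks on FGF receptors, by 0.50 (SE 0.04). Gab1, a docking protein, fell by 0.16 (SE 0.06; adjusted p = 0.0218), a call that was lost without mouse 3 of the sh Grb14 group or mouse 4 or 5 of the sh scramble group (adjusted p = 0.0508 and 0.0534 for the sh scramble mice). It was also lost without sh scramble mice 4 and 6 (change -0.15, adjusted p = 0.0727) and without the 5 arrays with acinar or muscle transcripts (change -0.14, adjusted p = 0.170). Both runs had fewer mice. Grb2 rose by 0.23 (SE 0.05) and the phosphatase gene Ptpn11 by 0.16 (SE 0.04), and both lost the call with arrays centred (adjusted p = 0.126 and 0.637). Ptpn11 also lost it without the 5 arrays with acinar or muscle transcripts, where its change was 0.14 (adjusted p = 0.0697). Rps6ka3, a kinase below ERK, rose 2.66-fold. Shc1 had a change of 0.01 (SE 0.05), or -0.14 with arrays centred (adjusted p = 0.0158).

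Genes that ERK signalling induces were mostly higher in sh Grb14 livers. Past the test, 11 of 17 measured feedback inhibitors and targets were higher and 0 were lower, with a median of 0.28, beside 25.8% of all genes higher. Dusp6, a phosphatase that switches ERK off, ranged between 10.68 and 10.92 in sh Grb14 livers and between 9.08 and 9.76 in sh scramble livers, and rose 2.63-fold. The immediate early genes Egr1 and Fos rose 2.75-fold and 1.96-fold. Myc ranged between 10.01 and 10.27 in sh Grb14 livers and between 7.95 and 10.37 in sh scramble livers, so the groups overlapped although the mean rose 2.26-fold. Etv5, a factor typical of FGF signalling, rose by 0.62 (SE 0.08). Its relatives Etv4 and Etv1 had changes of -0.02 and 0.00 (adjusted p = 0.763 and 0.973), which became -0.17 and -0.14 with arrays centred (adjusted p = 0.0295 and 0.0461), and the Sprouty gene Spry4 had a change of -0.02 (adjusted p = 0.839). Many other receptors feed ERK, the macrophage and T cell markers were higher in the same livers (9 of 9 and 10 of 13 rose), and their part in these rises was not tested.

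Genes of bile acid control, a process that FGF15 regulates through FGFR4 and beta-Klotho, were mostly lower in sh Grb14 livers. Cyp7a1, the rate-limiting enzyme of bile acid synthesis, ranged between 8.52 and 10.35 in sh Grb14 livers and between 11.98 and 12.26 in sh scramble livers, and fell 5.36-fold. Cyp8b1, which sets the proportion of cholic acid, ranged between 8.19 and 9.62 in sh Grb14 livers and between 11.74 and 12.09 in sh scramble livers, and fell 7.10-fold. The list held 9 genes, of which 8 were lower past the test (median -0.99), beside 39.5% of all genes. The list includes regulators as well as outputs and was not split by the direction in which FGF15 moves each gene. FGFR4 with beta-Klotho represses bile acid synthesis, so these falls do not measure receptor signal. Whether the lower Klb and Fgfr4 bear on them was not tested. Periportal and pericentral hepatocyte markers were lower in the same livers, with medians of -0.80 and -0.88, and their part in these falls was not tested. The nuclear receptors Nr1h4 (FXR) and Nr5a2 (LRH-1) fell by 0.93 (SE 0.05) and 0.62 (SE 0.06), the alternative pathway enzyme gene Cyp7b1 fell 7.96-fold and Slc10a1, the bile acid importer, 3.51-fold. Nr0b2, the repressor SHP, had a change of 0.18 (SE 0.16; adjusted p = 0.308), which was 0.32 without mouse 6 of the sh scramble group and then passed (adjusted p = 0.0357). It also passed without sh scramble mice 4 and 6 (0.37, adjusted p = 0.0255) and without the 5 arrays with acinar or muscle transcripts (0.40, adjusted p = 0.0312), while without mouse 5 of the sh scramble group it was 0.0484.

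Genes that respond to FGF21 given or overexpressed in mice were mostly lower in sh Grb14 livers. Igfbp1, an IGF binding protein that FGF21 induces, rose 3.26-fold, and Igf1 fell by 0.45 (SE 0.03). Igfals, which stabilises circulating IGF1, fell 3.76-fold, and Ghr, the growth hormone receptor, 1.90-fold. Socs2, a growth hormone target, lay between 8.75 and 9.10 in sh Grb14 livers and between 8.86 and 11.34 in sh scramble livers, overlapping, and fell on average 2.84-fold. Pck1, G6pc and Ppargc1a fell by 0.80 (SE 0.16), 0.81 (SE 0.13) and 0.85 (SE 0.14). Ppargc1a is also counted among the regulators of Fgf21, and Pck1 among the periportal markers. In all, 7 of 8 such genes were lower past the test and 1 was higher (median -0.83), beside 39.5% of all genes lower. The list was not split by the direction in which FGF21 moves each gene, so this count does not measure FGF21 action. Periportal and pericentral hepatocyte markers were lower in the same livers, and their part in these falls was not tested.

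**Figure D4:**
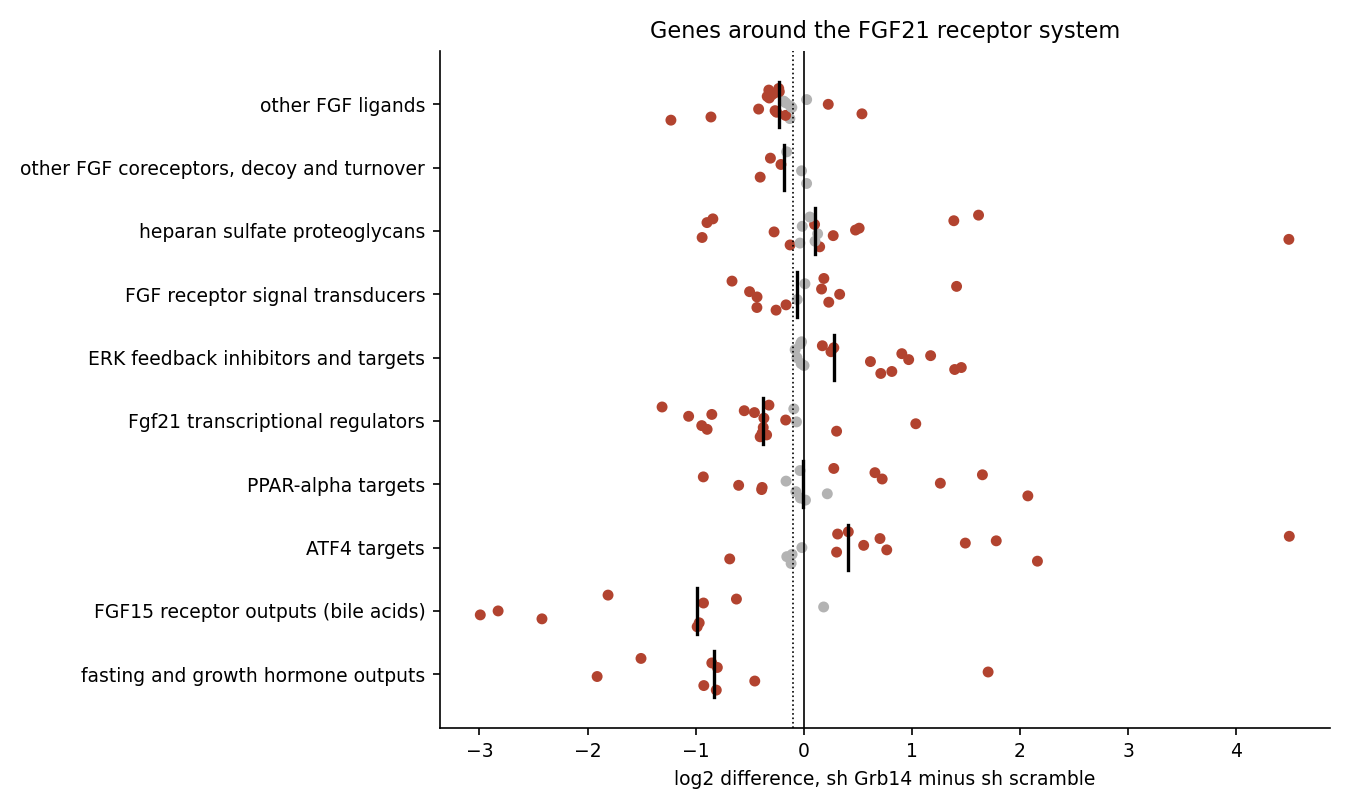
Log2 difference, sh Grb14 minus sh scramble (horizontal axis), of every measured gene in 10 lists around the FGF21 receptor system; each point is a gene, in red where the adjusted p was under 0.05 and in grey otherwise, the black bar is the median of the list, and the dotted line is the median of all genes. Bile acid outputs and fasting and growth hormone outputs have the lowest medians (-0.99 and -0.83), and ATF4 targets and ERK targets the highest (0.41 and 0.28).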

How the data were processed

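Liver expression was measured in 12 mice, 6 per group, from 100 ng of total RNA labelled for Affymetrix whole-transcript arrays, per the labels' protocols. The deposited values are log2 expression values for 35556 probe sets, and the submitters' processing notes list RMA and Partek without saying which step each served. The chip description file was not given in the sources used here. Values lay between 2.74 and 14.24. Array number limits the precision.

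Of the probe sets, 21789 had 1 symbol in the platform annotation, 1621 had several and 12146 had no listed gene. Only the 21789 were used, and each of 19938 genes was represented by whichever of its probe sets averaged highest. Entrez identifiers of 21698 matched RefSeq GRCm38.p6 names, and 0 symbols changed. Each of the 6 genes had 1 probe set.

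Log2 differences, sh Grb14 minus sh scramble, were fitted with limma 3.58.1 in R 4.3.3 (eBayes with an intensity trend, no covariate, no filter). Benjamini-Hochberg adjustment covered all 19938 genes, with a threshold of 0.05. The fit was checked on simulated data in which far fewer genes changed, equally in both directions. That check does not cover changes as widespread as those seen here. Single values were also compared in exact permutation tests over the mice. The members and lists were chosen with earlier results of these data known. List genes named are the 4 with the largest change past the test, the smallest, and those with a direct role for FGF21 or its receptors. Pck1 and G6pc are given as well, without a check under the alternatives below. The alternatives were array centring, no trend, a filter on dim genes, mean probe sets, array weights and leaving out each mouse, and, chosen after seeing the data, leaving out arrays with acinar or muscle transcripts. Batches are not given in the labels, and any that followed the groups cannot be told apart from them.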

Additional observations from a re-analysis of the deposited data

Results flagged for a closer look

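A value was marked where the gap between the highest or lowest mouse and its nearest neighbour was above Dixon's 95% critical share of the range of its group of 6. This was tried in 192 groups of values and marked 11, and chance alone marks about 1 in 20.

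For Fgf21, mouse 3 of the sh Grb14 group was the lowest at 6.45, with the others between 6.56 and 6.62. Psat1 was lowest in mouse 2 of the sh Grb14 group at 8.09, with the others between 8.45 and 8.63. Mouse 1 of that group had the highest mean level of ATF4 targets (9.03, others 8.80 to 8.88) and of heparan sulfate genes (9.71, others 9.58 to 9.63).

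Among sh scramble mice, mouse 4 was highest for pancreatic acinar markers (11.62, others 6.96 to 8.48), for adipocyte markers (7.88, others 6.85 to 7.07) and for Nupr1 (8.93, others 7.55 to 8.02). Mouse 6 was highest for skeletal muscle markers (9.15, others 6.64 to 6.84) and for the genes of bile acid control (11.86, others 11.71 to 11.76). Mouse 5 was highest for markers of monocytes and recruited macrophages (8.11, others 7.83 to 7.88) and of neutrophils (6.36, others 6.17 to 6.20).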

How the results depend on the processing

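Klb, Fgfr3 and Fgfr4 kept their direction and their call under every alternative run, with changes between -1.11 and -0.91 for Klb, -0.62 and -0.40 for Fgfr3 and -1.12 and -0.93 for Fgfr4. Averaging probe sets could not move these changes, because each gene has 1 probe set. The run without a trend and the filter on dim genes could alter their p-values but not the changes. Leaving out 1 mouse at a time gave -0.0204 to 0.0375 for Fgf21, -0.17 to -0.12 for Fgfr1 (adjusted p = 0.0215 to 0.0888), and 3 to 4 of the 6 genes past the test. Array weights gave Fgf21 a change of 0.0042. Array centring gave -0.15 for Fgf21 and -0.25 for Fgfr2, both then past the test. It also raised the number of genes lower in sh Grb14 livers to 12943, against 7868 as reported, with 3859 higher against 5144, and the accessory FGF genes past the test to 5. The filter on dim genes, which tests fewer genes, left 7869 of them past the test (4051 lower), with 2 other FGF ligands, 1 accessory gene and 7 ATF4 targets, and Fgf21 was not tested under it.

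Of 65 named list genes, 49 kept direction and call throughout and 11 changed sign. With arrays centred, Acadm was -0.13, Etv1 -0.14 and Shc1 -0.14, each then past the test, and Fap and Fgf23 were -0.12 each and did not pass. With array weights, Fgf23 was -0.0363 and Ndst2 0.0232. Without sh scramble mice 4 and 6, Nupr1 was 0.24, past the test (adjusted p = 0.0134), and Spry4 0.0693, and without the 5 arrays with acinar or muscle transcripts Fap was -0.0542, Fgf23 -0.011, Nupr1 0.22, Shc1 -0.0022 and Spry4 0.0458. Leaving out 1 mouse turned the sign of Acadm (-0.0118 to 0.0387), Etv1 (-0.0269 to 0.0305), Etv4 (-0.058 to 0.0016), Fap (-0.0036 to 0.0487), Fgf23 (-0.0211 to 0.0609), Fgfbp3 (-0.0565 to 0.005), Ndst2 (-0.0358 to 0.0209), Nr1d1 (-0.1086 to 0.005), Nupr1 (-0.098 to 0.1786), Shc1 (-0.0163 to 0.0325) and Spry4 (-0.0848 to 0.0239). The cause was not tested. No other probe set of the 6 genes was available for a comparison. No paired analysis was possible because mouse numbers do not recur between the groups. Dim genes have no detection call, which limits what can be said of Fgf21.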
